A study of Drosophila melanogaster with 2 samples.

Results

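The main list held 7521 ChIP-seq peaks from embryos of Drosophila melanogaster carrying a GFP-tagged lms protein. Of these, 307 had their summit 0 to 500 bp downstream of the nearest start site of a protein-coding gene. This was 4.08% of the peaks (exact 95% binomial interval 3.65 to 4.55%, counting error only). A peak was a member if its summit lay on the gene's strand at or past that start site and no coding start site on the opposite strand lay within 500 bp of the summit. Within the list of 7521 peaks, positions alone chose the members. That list is itself a cut on signal, as described below. For comparison, 1752 peaks lay 1 to 500 bp upstream of a single gene's start under the same rule, and are called upstream peaks here.

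The experiment had 1 group. Both biological replicates were pooled male and female whole embryos of 6 to 18 hours, from a transgenic line carrying CG13424, the gene also named lms, fused to GFP at its C terminus. The labels state an anti-GFP precipitation but name CG13424 in their antibody field, and a separate age label does not match the hours. The state of the native lms locus in this line is not stated, and a single control alignment served for every list. lms encodes a homeodomain protein known from a few larval body wall muscles, so that most cells of a whole embryo are of other types. The deposited lists hold peaks and not reads, so binding in lms-expressing cells and signal from other cells cannot be told apart.

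A start site is where RNA polymerase begins a transcript, and the bases just past it hold the 5′ UTR and often the first splice site. In flies, core promoters combine sequence elements around this position, among them the initiator and the TATA box, while the DRE, bound by DREF, lies mostly upstream. First introns of fly genes often hold enhancers, which are stretches that bind transcription factors. Many fly genes have several start sites close together, so that a position downstream of one start can be upstream of the next.

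The lists used were the IDR list (peaks that passed the irreproducible discovery rate procedure), the pooled list of 30000 peaks from which the IDR peaks come, and a list of 30000 peaks for each replicate. Signal is a score from the authors' peak caller on an unstated scale, and served here for ranking inside each list. All 7521 IDR peaks were the 7521 pooled peaks of highest signal, so the share of pooled peaks in the IDR list is a share above that signal. Coordinates are on dm6 and count from 1. Every p-value below treats peaks as independent and covers counting error only, not the spread between embryos.

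Sequence at the strongest members far from the start is shown first, because it gives the AT-rich composition described below. The 6 stretches are the summit base and 50 bases to each side of it, at the 6 members of highest signal over 250 bp from the start in an intron. They come from the release 6 RefSeq genome (dm6 coordinates) and read 5′ to 3′ along the gene's strand, and capitals mark TAATTA, the core that many homeodomains bind.
CG31612, chr2L:21794904-21795004, minus strand: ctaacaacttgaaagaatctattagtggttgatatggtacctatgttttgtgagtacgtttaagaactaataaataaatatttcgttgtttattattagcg
Ptp4E, chrX:4939924-4940024, plus strand: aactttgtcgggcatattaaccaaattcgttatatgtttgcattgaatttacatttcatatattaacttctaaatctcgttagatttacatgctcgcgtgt
rudhira, chrX:11818547-11818647, plus strand: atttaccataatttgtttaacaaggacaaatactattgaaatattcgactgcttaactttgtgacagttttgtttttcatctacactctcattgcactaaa
scramb2, chr3L:3046368-3046468, minus strand: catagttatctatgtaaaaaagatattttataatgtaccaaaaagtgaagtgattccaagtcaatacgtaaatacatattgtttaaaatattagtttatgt
hng3, chr3L:738842-738942, minus strand: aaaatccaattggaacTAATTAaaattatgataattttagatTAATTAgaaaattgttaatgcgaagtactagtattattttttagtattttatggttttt
Ada2b, chr3R:8239970-8240070, minus strand: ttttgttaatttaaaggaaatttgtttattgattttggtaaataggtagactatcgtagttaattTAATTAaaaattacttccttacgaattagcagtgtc

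GC content of these stretches ran from 17.8% at hng3 to 30.7% at Ptp4E, which encodes a receptor tyrosine phosphatase. The core TAATTA occurred in the stretches of hng3 and of Ada2b, a subunit of histone acetyltransferase complexes.

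Members at the start itself are shown by the DRE, TATCGATA, which 6 of 307 members held within 50 bp of the summit. The 28 bases around it are given for 5 of them, along the gene's strand, with the DRE in capitals. A further stretch shows GGTCACAC, the core of the element bound by M1BP, at a ribosomal protein gene.
fz3, chrX:769931-769958, plus strand: catatattcaTATCGATAcctggctgct
Tpr2, chr2L:16491493-16491520, plus strand: aatatttattTATCGATAtatttttact
RpS12, chr3L:13023301-13023328, plus strand: tctgcgaaacTATCGATAtttgtaccaa
ppl, chr3L:21281537-21281564, minus strand: ctattatcgcTATCGATAtgcatgcctt
CG14657, chr3R:4821444-4821471, minus strand: caggcccgctTATCGATAcccgactggc
RpL37A, chr2L:5070980-5071007, plus strand: atcgagcggcGGTCACACttttcgctct

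These 6 genes were chosen after their values were seen. In the 5 genes with a DRE the element began upstream of the annotated start, at -4 bp in fz3, -37 bp in Tpr2, -41 bp in RpS12, -48 bp in ppl and -29 bp in CG14657. Their pooled summits lay 2 to 12 bp past the start. The summit of 1 replicate lay upstream of it in fz3 (-5 bp), Tpr2 (-104 bp) and ppl (-2 bp), each in replicate 1, and in RpS12 (-112 bp), in replicate 2. In CG14657 both lay downstream (23 and 85 bp). These were weak peaks, ranking from 5889 to 7369 of 7521. In RpL37A the GGTCACAC began 33 bp past the start and the pooled summit lay at 17 bp, with replicate summits at 14 and -9 bp.

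The 307 members were spread over 305 start sites of 305 protein-coding genes, which is 2.18% of the 13968 coding genes. Single-gene upstream peaks were found at 1619 genes, or 11.6%. Of the members, 58 lay on 2L, 70 on 2R, 71 on 3L, 53 on 3R, 54 on X and 1 on chromosome 4. Genes on the plus strand held 142 members and genes on the minus strand 165. Members had a median width of 364 bp, against 322 bp over all IDR peaks. Many weaker members had a width of exactly 410 bp with the summit in the middle. Widths were not compared at equal signal rank, so they are not read as broader binding. Of the 307, 16 shared their interval with another IDR peak, so that members are not all separate regions.

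Members were densest at the start, sparsest between 250 and 300 bp and somewhat denser again further in. The median distance was 106 bp, with quartiles at 42 and 320 bp. Counts were divided by the available sequence, meaning all positions that satisfied the rule for a given distance. Density was 126.7 summits per Mb at 0 to 49 bp and 81.1 at 50 to 99 bp. It was lowest from 250 up to 300 bp, with 8 summits and 10.6 per Mb, and was 27.2 per Mb from 300 to 500 bp. Within the first 250 bp lay 215 members and beyond it 92. This boundary was set after the positions had been seen and serves as a description.

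Downstream sequence held fewer IDR summits than upstream sequence at each distance plotted. Over 0 to 500 bp the density was 40.96 per Mb downstream, against 283.2 per Mb upstream. Among the 7521 highest peaks of each replicate, density at 0 to 49 bp was 148.5 per Mb in replicate 1 and 110.3 per Mb in replicate 2. From 250 up to 300 bp it was 11.9 and 13.2 per Mb, and from 450 to 500 bp 25.3 and 39.2 per Mb.

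**Figure D1:**
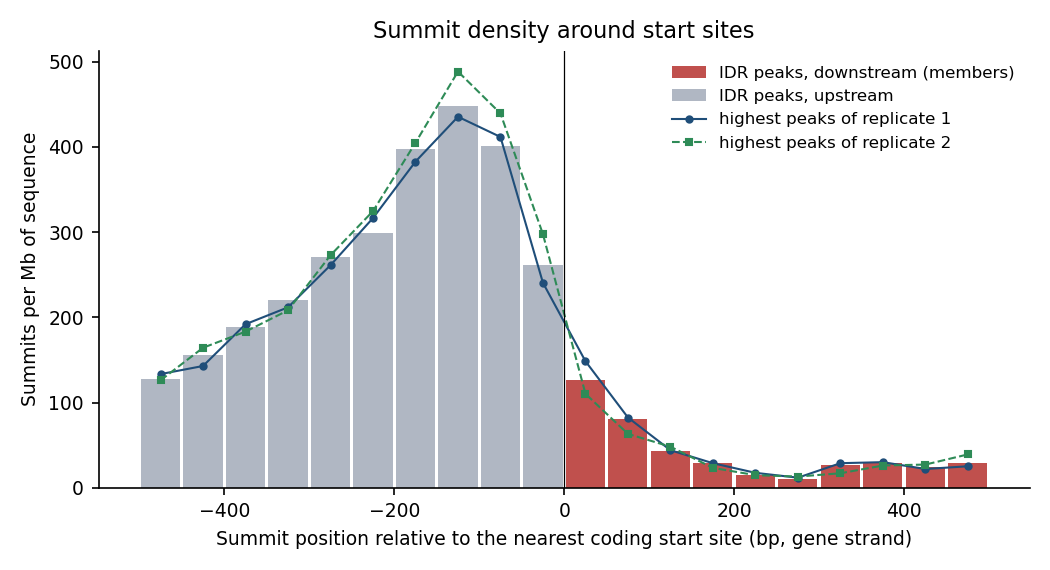
Density of summits per Mb of available sequence (y) against position relative to the nearest coding start site (x, bp on the gene's strand, 50 bp bins), for the 307 members, the upstream peaks and the 7521 highest peaks of each replicate. Density declines from 126.7 per Mb just past the start to 10.6 per Mb between 250 and 300 bp and is 27.2 per Mb beyond 300 bp.

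Few peaks called downstream of starts reached the IDR list. Of 30000 pooled peaks 7521 (25.1%) were in the IDR list. Among pooled peaks just downstream of a start the share was 307 of 2104 (14.6%, exact 95% interval 13.1 to 16.2%), against 1752 of 4543 upstream peaks (38.6%, 37.2 to 40.0%). The difference was -23.97 percentage points (two-sided Fisher's exact test, adjusted exact p = 1.22e-92 over 6 comparisons of classes). Each replicate alone gave the same direction. Among the peaks of replicate 1 that lay downstream, 14.6% belonged to its 7521 highest, against 37.3% of those upstream, and in replicate 2 the shares were 15.3% and 46.2%.

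Downstream peaks outside the IDR list numbered 1797. They were densest at the start, with 727.4 per Mb at 0 to 49 bp. Further in they had no comparable dip, with 113.7 per Mb from 250 up to 300 bp and 121.2 per Mb from 300 to 500 bp. The share that reached the IDR list was 8.15% from 200 up to 250 bp and 18.3% at 300 to 500 bp.

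A further start site ahead went with a higher share. Of the 307 members, 85 (27.7%) had another coding start on the same strand within 500 bp past the summit, and all 85 further starts belonged to the same gene. Such positions made up 3.96% of the available downstream sequence. Members numbered 286.4 per Mb there, against 30.8 per Mb where no further start followed. The distance to the further start had a median of 162 bp, with quartiles at 118 and 259 bp. Since each summit was assigned to its nearest start, a further start could not be closer than the member's own. The comparison of summits by the next start was chosen after the positions had been seen.

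Pooled downstream peaks with a start ahead were in the IDR list in 85 of 272 cases (31.3%, exact 95% interval 25.8 to 37.1%), against 222 of 1832 without one (12.1%, 10.7 to 13.7%). This difference passed the test (two-sided Fisher's exact test, adjusted exact p = 8.31e-14 over the same 6 comparisons). The share was 55.0% (22 of 40) where the next start was over 100 and up to 150 bp ahead and 20.2% (17 of 84) where it was over 300 bp ahead. Of members with a start ahead, 43 of 85 (50.6%) ranked among the 3760 highest IDR peaks, against 84 of 222 with none ahead (37.8%). Within 250 bp of the start the counts were 39 of 81 (48.1%) and 35 of 134 (26.1%); these shares were not tested. Without the members that had a start ahead, the difference from upstream peaks was -26.4 percentage points (exact p = 5.98e-106, not adjusted).

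**Figure D2:**
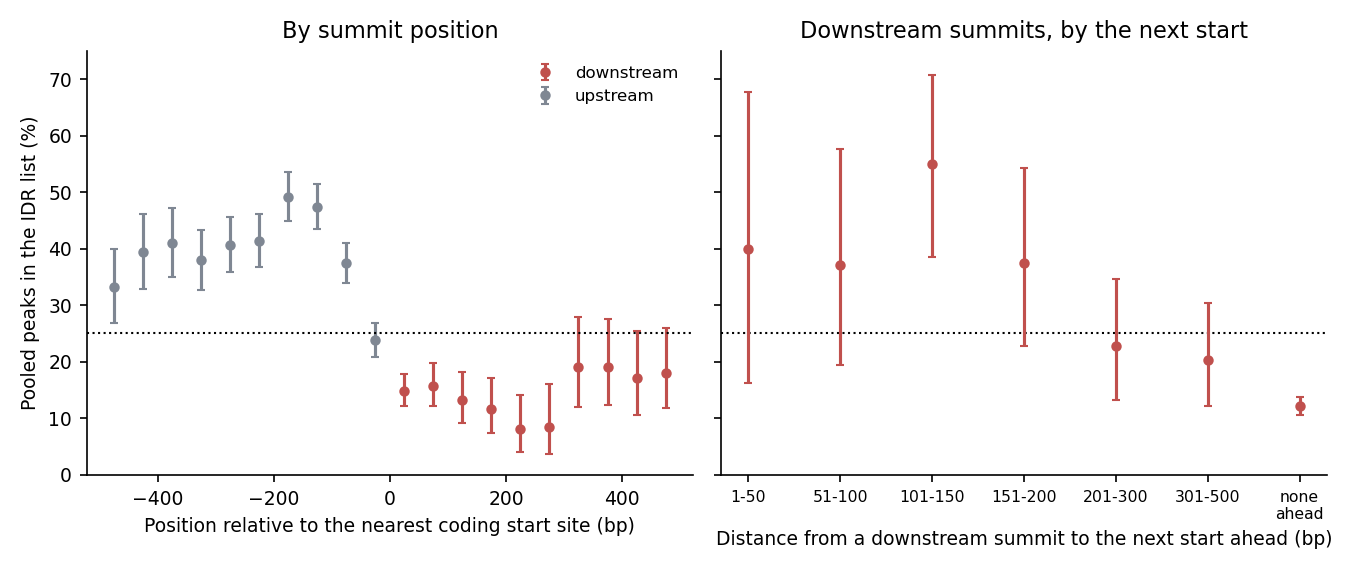
Share of pooled peaks that are in the IDR list (y, percent, with exact 95% binomial intervals) by summit position in 50 bp bins (left) and, for downstream summits, by the distance to the next start ahead on the same strand (right). The dotted line is the 25.1% of all pooled peaks; the share is 55.0% where the next start is over 100 and up to 150 bp ahead and 12.1% where none follows.

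Genes with members less often had a single annotated start than genes with upstream peaks. The gene had a single annotated start for 75 of 307 members (24.4%), against 786 of 1752 upstream peaks (44.9%; two-sided Fisher's exact test, adjusted exact p = 1.64e-11). Genes with a single start made up 57.4% of the available downstream sequence and 55.9% of the upstream sequence. The start was the first of its gene for 178 members (58.0%), against 1225 upstream peaks (69.9%; adjusted exact p = 4.90e-05). Among the 222 members with no start ahead the gene had a single start in 75 cases (33.8%). An upstream peak was at the same start site for 22 of 307 members (7.17%), while 8.76% of all 19276 coding starts had one. For 73 members (23.8%) an upstream peak was at some start of the gene, beside 11.6% of all coding genes; genes with several starts have more chances of one, and this was not tested.

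Few members lay in coding exons. Of the 307 summits, 191 lay in a 5′ UTR (62.2%, exact 95% interval 56.5 to 67.7%), 107 in an intron (34.9%, 29.5 to 40.5%), 2 in other exons and 7 in a coding exon (2.28%, 0.922 to 4.64%). At the same distances from all coding start sites, 54.1% of positions were 5′ UTR, 14.3% intron and 30.3% coding exon. Over 0 to 500 bp past the members' own starts, 52.7% was 5′ UTR, 33.1% intron and 13.1% coding exon, so that the intron share of the members' own windows was close to that of their summits. Members numbered 71.5 per Mb of 5′ UTR and 65.9 per Mb of intron, against 2.30 per Mb of coding exon.

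The coding exon members were CG44812 (397 bp, signal 558.2), Got2 (89 bp), CG15531 (435 bp), uri (46 bp), lawc (127 bp), Pop5 (15 bp) and Sh3beta (127 bp), which are named after their values were seen. Weaker downstream peaks fell in coding exons in 9.57% of cases. Pooled downstream peaks in introns were in the IDR list in 107 of 482 cases (22.2%), against 7 of 179 in coding exons (3.91%; two-sided Fisher's exact test, adjusted exact p = 2.03e-09).

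The annotation changed with distance. Within 99 bp of the start 142 of 152 members lay in a 5′ UTR. Beyond 250 bp 74 of 92 lay in an intron (80.4%, exact 95% interval 70.9 to 88.0%), against 29.7% of positions at the same distances from all starts, while 2 of 92 lay in a coding exon, against 50.5%. The sequence past the members' own starts was not split by distance, so the far members have no such comparison. Intron density was 66.0 per Mb within 250 bp and 65.8 per Mb beyond it.

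**Figure D3:**
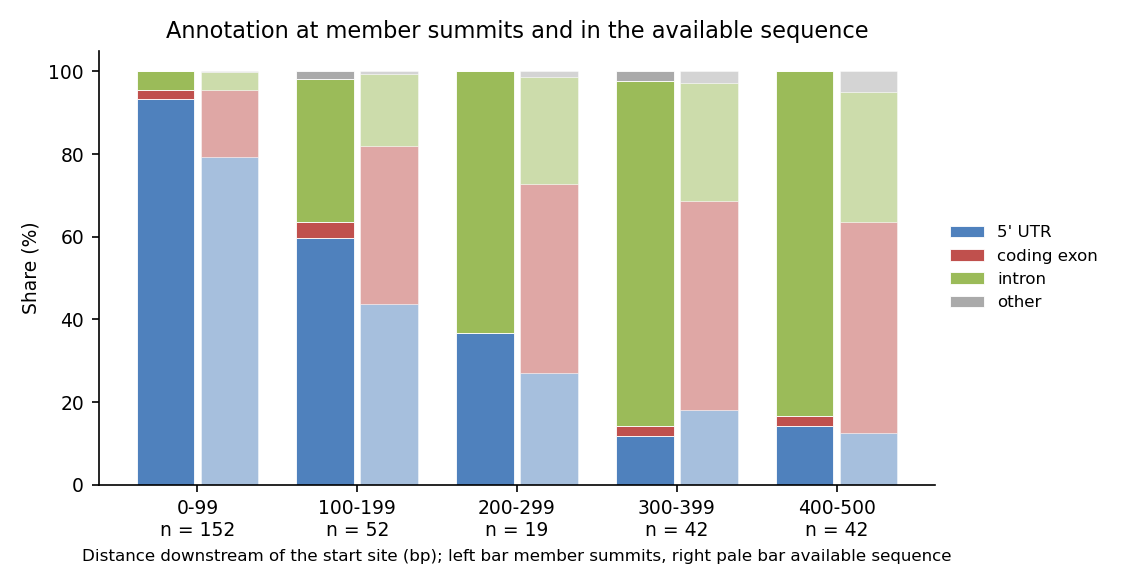
Share of member summits (left bar of each pair) and of available sequence (right, pale bar) in 5′ UTRs, coding exons, introns and other classes (y, percent) by distance downstream of the start site (x, bp). Beyond 300 bp introns hold 83.3% of members in both bins, and coding exons hold at most 3.85% of members in any bin.

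Of the 107 intron members, 103 lay in the first intron of a transcript from the same start. That intron had a median length of 809 bp, with quartiles at 405 and 2241 bp. At all 13617 coding starts whose first exon ends within 500 bp the median first intron was 182 bp. A long intron offers more positions within 500 bp, and its part in this difference was not tested. Summits lay a median of 147 bp past the end of the first exon.

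Summits in the replicates were matched within 150 bp of the pooled summit, so a member over 150 bp from the start could only be matched downstream. In replicate 1, 304 of 307 members had a summit within 150 bp and 296 of those (97.4%) were downstream of the start. In replicate 2, 287 members had one and 250 (87.1%) were downstream. Of the 284 members with a summit in each list, 242 (85.2%) were downstream in both, 41 were upstream in one list and 1 was upstream in both. All 42 exceptions had a pooled summit within 66 bp of the start. Among the 183 members under 150 bp from the start, 172 of 180 matched summits were downstream in replicate 1 (95.6%) and 132 of 169 in replicate 2 (78.1%). Of the 166 with a summit in each list, 124 (74.7%) were downstream in both. The median shift from the pooled summit was 1 bp in replicate 1 and 25 bp in replicate 2.

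**Figure D4:**
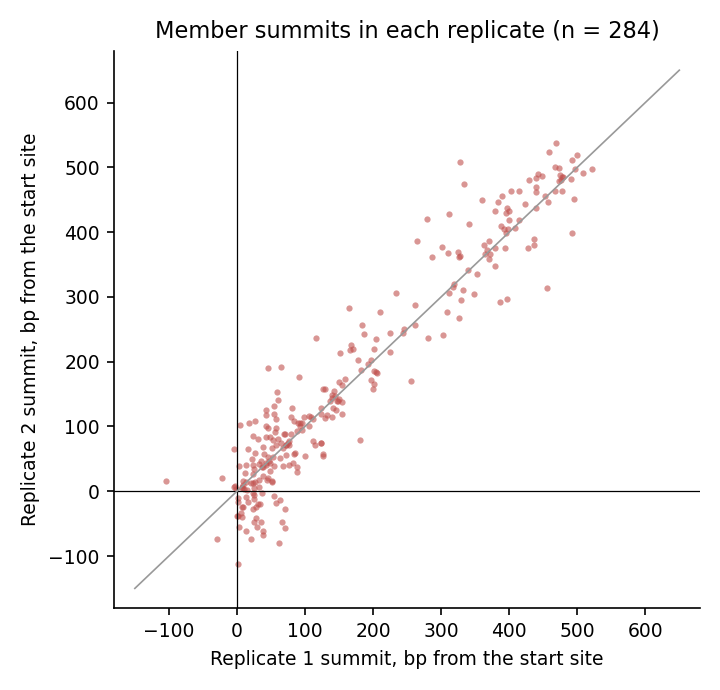
Position of the matched summit in replicate 1 (x) and replicate 2 (y), in bp from the start site, for the 284 members with a summit within 150 bp in each full list; the diagonal marks equal positions. Of the points, 242 lie in the upper right quadrant and the points that cross 0 sit near the start.

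Fewer members than upstream peaks were found among the highest peaks of both replicates. Of all IDR peaks 77.5% had a summit within 150 bp in the 7521 highest peaks of each replicate. For members the count was 198 of 307 (64.5%, exact 95% interval 58.9 to 69.9%), against 1390 of 1752 upstream peaks (79.3%, 77.4 to 81.2%; two-sided Fisher's exact test, adjusted exact p = 4.87e-08). The difference was in replicate 2, where the shares were 67.8% and 84.0% (exact p = 1.60e-10), while in replicate 1 they were 94.8% and 94.5% (exact p = 1). The replicates are not equal checks here. The IDR list is a cut on pooled signal, which lay closer to that of replicate 1, as in PNPase (pooled 4351, replicates 3555 and 803.6) and ph-p (4173, 3407 and 806.1). A high share in replicate 1 was therefore in part fixed in advance for both classes. Members ranked lower in the IDR list, with a median rank of 4461 against 3446 for upstream peaks. Among the 3760 highest IDR peaks the shares were 95.3% of 127 members and 97.9% of 948 upstream peaks (exact p = 0.112), and among the others 42.8% of 180 and 57.5% of 804.

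Members near the start were weaker than those further in. The median signal was 201.6 within 250 bp and 298.4 beyond it, against 290.1 for upstream peaks and 267.2 for all IDR peaks. Ranks among the 3760 highest were held by 34.4% of the near members and 57.6% of the far ones. The far members were found in the highest peaks of both replicates in 76.1% of cases, and the near ones in 59.5%.

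GC content at member summits was lower than at the same distances from all starts. In 51 bp windows it averaged 38.0% ± 11.2 (SD over 307 peaks), against 45.0% at the same distances over all coding starts. At upstream peaks it was 33.1% ± 11.7 (SD over 1752 peaks), against 39.6% at their distances. The members within 250 bp averaged 39.6% and those beyond it 34.3%, with 44.2% and 46.85% at their distances. Of the 92 far members 80 (87.0%) were below the mean of all starts at their distance, and of the 215 near members 136 (63.3%) were. The compared positions differ in annotation. Beyond 250 bp coding exons made up 50.5% of positions over all starts and introns 29.7%, against 2.17% and 80.4% of members. GC content was not compared within a class of annotation, so the part of annotation in these differences was not tested.

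**Figure D5:**
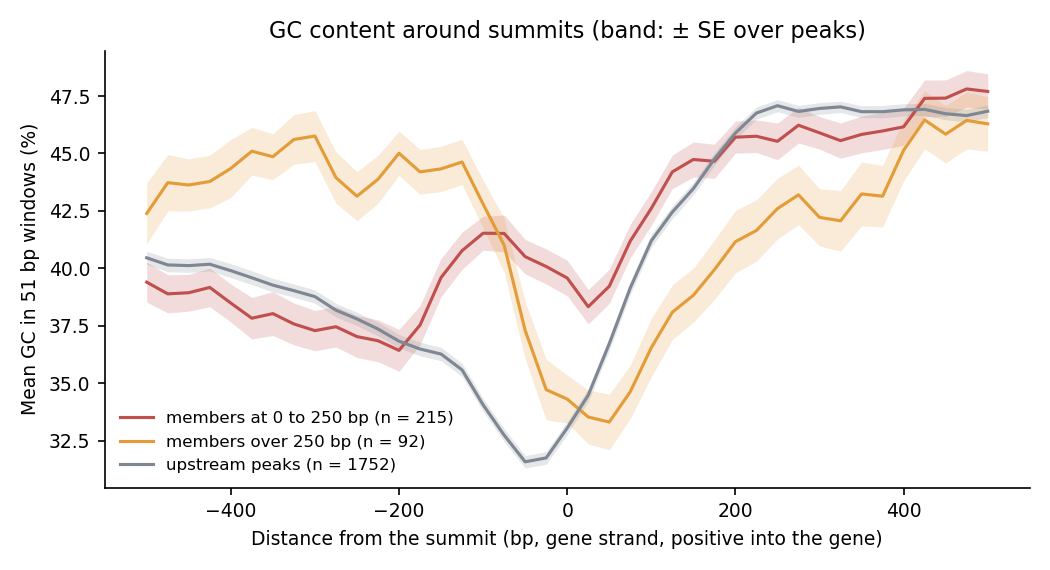
Mean GC content in 51 bp windows (y, percent, band ± SE over peaks) against distance from the summit (x, bp on the gene's strand) for members at 0 to 250 bp, members over 250 bp and upstream peaks. The far members stand at 34.3% at the summit and 45.1% at 400 bp past it, while the near members stand at 39.6% at the summit.

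No motif of 14 differed between summits and flanks 500 bp away once adjusted (exact McNemar test on presence within 50 bp of the summit, both strands, Benjamini-Hochberg over 14 motifs), and 3 had an unadjusted exact p under 0.05. These were CGATA, the core bound by BEAF-32, in 64 member windows (20.8%) against 39 flanks (12.7%, adjusted exact p = 0.0732), TATAAA in 17.3% against 10.1% (adjusted exact p = 0.118) and ATATTA in 14.0% against 8.14% (adjusted exact p = 0.140). CGATA passed the threshold under 5 alternatives, among them summits within 250 bp of the start (13.0 percentage points, adjusted exact p = 0.00328) and flanks downstream of the summit (10.8 points, adjusted exact p = 0.00375). Among the 3760 highest IDR peaks its difference was -3.15 points (adjusted exact p = 0.854). CGATA is part of TATCGATA, so that windows with a DRE count for it too. TAATTA was in 8.14% of member windows and 5.54% of flanks (adjusted exact p = 0.674), and in 11.3% of all 7521 IDR windows. In those windows CGATA was found in 14.9%, TATAAA in 25.7%, ATATTA in 23.6%, TATCGATA in 1.58% and GGTCACAC in 0.851%. Mean GC in 51 bp windows was 38.0% at member summits, 40.3% at 500 bp before them and 47.3% at 500 bp past them. The flank comparison was not matched for it.

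Between members and upstream peaks 1 motif of 14 differed. ATATTA was in 43 of 307 member windows (14.0%, exact 95% interval 10.3 to 18.4%), against 386 of 1752 upstream windows (22.0%, 20.1 to 24.0%; two-sided Fisher's exact test, adjusted exact p = 0.0185). TATAAA was in 17.3% against 23.5% (adjusted exact p = 0.103), and TAATTA in 8.14% against 10.7% (adjusted exact p = 0.594). These 3 motifs hold only A and T, and mean GC was 38.0% at members against 33.1% at upstream summits. Motif presence at equal GC content was not tested. TATCGATA was in 1.95% (0.721 to 4.21%) against 3.31% (2.52 to 4.26%) and GGTCACAC in 0.977% (0.202 to 2.83%) against 1.54% (1.02 to 2.23%). ATATTA was in 11.2% of near and 20.7% of far member windows; this split was not tested. The difference between members and upstream peaks had an adjusted exact p of 0.0892 among the highest peaks of replicate 2 alone and of 0.491 among the 3760 highest IDR peaks.

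The start sites themselves were also compared. Of 305 starts with a member, 38 (12.5%) had the initiator core TCAGT beginning at -6 to +4, against 236 of 1689 starts with an upstream peak (14.0%) and 11.4% of all 19276 coding starts. A TATAAA beginning between -40 and -20 was at 3.28% of member starts, against 3.55% of upstream starts and 6.86% of all. Within 150 bp upstream of the start, TATCGATA was found at 6.89%, against 6.10% and 5.65% of all. GGTCACAC was found at 3.61% of both sets of starts, and at 3.02% of all. Between member and upstream starts, none of the 4 elements passed the threshold (two-sided Fisher's exact test, adjusted exact p = 1 for each). None had an unadjusted exact p under 0.05 there. The comparison with all coding starts was not tested. For TATAAA the exact binomial interval was 1.58 to 5.95% at member starts and 2.72 to 4.55% at upstream starts. Both lay below the 6.86% of all. For the other elements the interval at member starts included the share of all.

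The 20 members of highest signal ranked from 31 to 617 in the IDR list, from 31 to 602 in replicate 1 and from 26 to 730 in replicate 2. The summits of the replicates differed by at most 44 bp in all 20. Of these, 13 lay within 250 bp of the start, 12 in a 5′ UTR and 8 in an intron. A further start followed in 9 of them, 93 to 209 bp ahead.

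PNPase, which encodes a mitochondrial RNA-degrading enzyme, had the highest member (3R, 31404441 to 31404884, signal 4351, rank 31). Its summit lay 75 bp past the start in both replicates, where it ranked 31 and 27, and 97 bp before the next start. GstE13, a glutathione S-transferase gene, ranked 58 with its summit at 65 bp and 134 bp before the next start. Smg5, a gene of nonsense-mediated RNA decay, ranked 84 with its summit at 92 bp and 93 bp before the next start. Its start also had an upstream peak. CG10413 (109 bp, rank 85), CG4497 (27 bp, rank 149) and CG9399 (53 bp, rank 203) had a start 118, 148 and 172 bp ahead. CAH3, a carbonic anhydrase gene, lay at 146 bp (rank 283) with a start 153 bp ahead. CG14434 (112 bp, rank 437) had one 145 bp ahead, and sqh, which encodes the regulatory light chain of nonmuscle myosin, had one 209 bp ahead of its summit at 154 bp (rank 587).

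Other members of the 20 near a start had none ahead within 500 bp. They were Cftr, a chloride channel gene (197 bp, rank 276), Eip75B, an ecdysone-induced nuclear receptor gene (38 bp in each replicate, rank 331), CG12316 (67 bp, rank 539) and scny, a ubiquitin protease gene (52 bp, rank 617). In scny the summit was at 52 bp in replicate 1 and 14 bp in replicate 2.

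Members of the 20 over 250 bp from the start were led by ph-p, which encodes a Polycomb group protein. Its peak (X, 2137097 to 2138187, signal 4173, rank 34) was the widest of the members at 1091 bp, with a summit 423 bp past the start in replicate 1 and 444 bp in replicate 2, in a 5′ UTR. CG31612 (493 bp, rank 142), Ptp4E (393 bp, rank 269), rudhira (260 bp, rank 388), scramb2 (394 bp, rank 432), hng3 (457 bp, rank 440) and Ada2b (495 bp, rank 465) followed, all in introns. Ptp4E ranked 249 in replicate 1 and 378 in replicate 2, and hng3 415 and 566.

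A pair of members was found at each of 7 genes. ph-p also had one 79 bp past another of its starts (rank 4107). Trpm, a cation channel gene, had summits 154 and 27 bp past different starts (ranks 867 and 7245). Gli, which encodes a septate junction protein, had summits 365 and 165 bp past the same start, within a single interval. Pgk, a glycolytic enzyme gene, had summits 317 and 335 bp past different starts. Fmr1, an RNA-binding protein gene, had them 8 and 110 bp past different starts. Acsl, an acyl-CoA synthetase gene, had them 203 and 403 bp past the same start. The last gene was ced-6, named after its values were seen.

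Of 92 ribosomal protein genes 8 (8.70%) had a member, beside the 2.18% of all coding genes, and 31 (33.7%) had an upstream peak, beside 11.6%. RpL26 had the highest (3L, 18898714 to 18899144, signal 772.1, rank 1000), 61 bp past the start in an intron, at 48 bp in replicate 1 and 32 bp in replicate 2. RpS4 (8 bp, rank 3239), RpL9 (0 bp, rank 4702) and RpS15Aa (2 bp, rank 4718) followed. Replicates placed these 3 on either side of the start, at 17 and -17 bp for RpS4, -3 and 8 bp for RpL9, and 9 and -24 bp for RpS15Aa. The same held for RpS30 (23 and -3 bp), RpL37A (14 and -9 bp), RpL12 (31 and -19 bp) and RpS12 (2 and -112 bp), named after their values were seen. Of the 8, only RpL26 had its summit downstream in both replicates. All 8 pooled summits lay within 61 bp of the start. No mitochondrial ribosomal protein gene of 73 had a member, and 6 (8.22%) had an upstream peak.

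Of 91 genes in the 5 muscle and mesoderm lists 2 had a member (2.20%), near the 2.18% of all coding genes. None of the 20 muscle identity, 16 myoblast fusion or 22 sarcomere genes listed had one, while 2, 2 and 6 of them had an upstream peak. The lists are not complete. Mf, a thick filament protein gene that was not listed, had a member at 478 bp in an intron (rank 6814), and is named after its values were seen. Names without a match in the annotation numbered 2 on the fusion list, 1 on the attachment list and 1 on the sarcomere list. Of 18 mesoderm and heart regulators, Mef2, the gene of a central muscle differentiation factor, had a member at 95 bp (rank 5918), which replicates placed at 59 and 153 bp. Of 15 attachment genes, if, which encodes an integrin alpha chain, had one at 210 bp in an intron (rank 4342).

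The lists for other tissues gave 7 genes with a member. Gli and wun2, among 8 glial genes, grh of 12 epidermal and tracheal genes, Mtp and Fas2 of 16 gut, fat body and blood genes, hry of 21 segmentation genes and arr of 28 signalling genes had members. None of the 18 neuronal and 8 Hox genes listed did. The lists are not complete, and a gene can belong to a tissue other than that of its list. Fas2, listed here under gut, fat body and blood, also has a neuronal role. Nrx-1 (140 bp, rank 782), Csp (86 bp, rank 5908) and Dscam1 (46 bp, rank 6421) have neuronal roles, were on no list and had members. These 3 are named after their values were seen. The member of Mtp, which encodes a lipid transfer protein, lay at 476 bp in an intron (rank 1485). That of hry, a segmentation repressor, lay at 31 bp (rank 6658), with replicate summits at 39 and -68 bp. At 2.18% of genes, lists of this size hold few members, and no list was tested.

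The nearest members to the start were RpL9, CG1840 (signal 151.9) and nuf (136.4), all at 0 bp. Just outside lay CG18622 at -1 bp (213.1), CG2811 at -2 bp (682.5) and CG3764 at -2 bp (504.2). The interval of CG18622 held a member too, with a summit at 198 bp. At the far edge lay CG10383 at 500 bp (250.2), CG5567 at 497 bp (159.0) and Ada2b at 495 bp (1262), and just outside it mats at 506 bp (384.9), ru at 507 bp (141.6) and CG15247 at 508 bp (712.4).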

How the data were processed

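ChIP-seq peak lists of 2 biological replicates (1 group) were analysed. The deposited lists hold each peak's position, a signal score, a −log10 q-value and where its summit lies. Per the notes deposited with the files, the authors called peaks on each replicate and on both together against the same control alignment on dm6, and derived the IDR list from them. Aligner, caller, IDR settings and read depth are not given in the sources used here. The deposited −log10 q-value stood at 4.37 throughout the IDR list, so it ranked nothing. Replicate numbers come from the labels.

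Start sites are transcript starts of protein-coding genes in Ensembl release 115 (BDGP6.54), and sequence is the release 6 RefSeq genome. A summit in several features was classed first as 5′ UTR, then as coding exon, then as 3′ UTR, then as another exon and last as intron. Motifs were sought on both strands within 50 bp of the summit. The flank lay 500 bp to the left for odd signal ranks and to the right for even ones. Fisher's and McNemar's exact tests were two-sided, with Benjamini-Hochberg adjustment and a threshold of 0.05. Binomial intervals are exact (Clopper-Pearson, 95%) and cover counting error only. The functions were tested on simulated data. Python 3.11.15, numpy 2.4.6, pandas 2.3.3, scipy 1.17.1 and matplotlib 3.10.9 were used.

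The members, gene lists, motifs and tests were chosen with earlier results of these data known. The split at 250 bp and the comparisons by next start and by annotation were added after positions had been seen. Named are the genes of the 20 highest members, 3 peaks on each side of both edges, up to 4 members per gene list, the 5 highest members over 300 bp and up to 6 genes with several members. Alternatives changed the distance limit, opposite-strand rule, start sites, signal part, motif windows, flanks and replicates.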

Additional observations from a re-analysis of the deposited data

How the results depend on the processing

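Of 143 alternatives 99 kept the direction, the side of the threshold or the size of the result. For single motifs 54 of 75 did, and for the main results 45 of 68. Counts did not have to be equal to be kept. Every alternative was kept for the share of pooled peaks in the IDR list (-23.97 percentage points, from -30.85 to -22.68 with 1 replicate left out). Among the 3760 highest IDR peaks there were 127 members at 129 genes (some starts serve several genes), with a median distance of 162 bp, 49.6% in 5′ UTRs and a mean GC of 33.5%. There the replicate match difference was -2.615 percentage points (exact p = 0.112), 0 motifs differed from upstream peaks and 1 start-site element did. In these peaks CGATA was lower at summits than in flanks (-3.15 points, McNemar test, adjusted exact p = 0.854). TAATTA was higher than at upstream peaks (1.83 points, Fisher's test, adjusted exact p = 0.746). Neither of these 2 motif differences passed the threshold. Without the rule on the opposite strand there were 494 members, 5 motifs past the threshold against flanks and 2 against upstream peaks. A limit of 250 bp gave 81.9% in 5′ UTRs and 1 motif, CGATA, against flanks. CGATA was past the threshold against flanks in 5 alternatives, with adjusted exact p-values from 4.62e-04 to 0.0296. Motif windows of 25 bp gave 1 and 2 motifs, and those of 100 bp 4 and 3. Flanks downstream of the summit gave 5 motifs. With flanks upstream of it TAATTA was lower at summits, short of the threshold (-1.95 points, McNemar test, adjusted exact p = 0.7725). Start sites of all genes gave 2 motifs against upstream peaks. With 1 replicate left out that count ran from 0 to 3, and the replicate match difference from -16.27 to 0.268, the positive value being replicate 1 alone. Leaving out members with a further start ahead, an alternative chosen after seeing the data, gave 55.9% in 5′ UTRs and a match difference of -19.88 points. The cause of these shifts was not tested. No paired analysis was possible because the study has 1 group. Read depth is unknown, and the lists end at 30000 peaks, so weaker peaks were not analysed here.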
